A study of Mus musculus with 12 samples.

Results

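The effect of an O-GlcNAc transferase (OGT) inhibitor on gene expression was examined in mouse embryonic stem cells (mESCs) differentiating in retinoic acid (RA). Genes were described when they reached 1 FPKM (fragments scaled by gene length and library depth) or more in at least 3 of the 6 RA-treated libraries. That held for 14006 of the 54555 genes in the deposited table, and 12512 of them reached 1 FPKM in all 6. Through 1 group alone, 126 genes entered with all 3 inhibitor libraries and no control library, and 126 the other way round. Of the genes named below, Tfap2a and Gm22574 entered that way through the inhibitor libraries, and Cubn, Spry4 and Tex101 through the control libraries. Their values after RA are a description only, though those that belong to a list are included in its counts. The rule turns on the third highest value of the 6, which was 1.0004 FPKM for the gene just inside, an unannotated transcript, and 0.9995 FPKM for Gm17195, just outside.

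All cells were of the line R1, an established mouse embryonic stem cell line, grown on gelatin, so the results are those of 1 line. The RA_control cells had a vehicle (DMSO) pre-treatment and then 48 h in 1 µM RA in medium without leukemia inhibitory factor (LIF), the cytokine that keeps mESCs undifferentiated. The RA_OGTi cells were pre-treated with 25 µM of the inhibitor Ac45SGlcNAc for 48 h before the same RA step. The sources used here do not say if inhibitor was kept in the medium alongside RA. Undifferentiated cells kept in LIF, without (mESC_control) or with (mESC_OGTi) 48 h of inhibitor, served for comparison. Each group had 3 libraries. RA and the loss of LIF came together in both RA-treated groups, so their parts cannot be told apart. The RA step also came after the 48 h of inhibitor, while mESC_OGTi cells had 48 h of inhibitor and no RA step. In every difference of effects between the states, cell state thus cannot be told apart from time since the start of inhibitor. The labels number the replicates without saying whether they were separate cultures, so the spread behind each p-value is that of the libraries and may be only technical.

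O-GlcNAc is a sugar, N-acetylglucosamine, that OGT attaches to serines and threonines of nuclear and cytoplasmic proteins and that O-GlcNAcase (OGA, gene Mgea5) removes. The donor, UDP-GlcNAc, comes from glucose through the hexosamine pathway, whose entry enzymes are Gfpt1 and Gfpt2. Ac45SGlcNAc is taken up and converted by cells into a sulfur-containing analogue of UDP-GlcNAc that OGT uses poorly. RA binds nuclear receptors that sit on DNA as dimers and drive genes such as Cyp26a1, Rarb and the early Hox genes, while the pluripotency network of Pou5f1, Sox2 and Nanog is shut down.

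The 6 libraries held 15553627 to 17833464 fragments assigned to genes. The first principal component of log2(FPKM + 1), with 54.24% of the variance, parted the inhibitor from the control libraries. Mitochondrially encoded genes took 0.723% to 0.828% of fragments in control and 0.617% to 0.701% in inhibitor libraries. All 8 markers of RA-induced differentiation were at 1 FPKM or more, and their sum was 837.4 to 889.9 FPKM in RA_control and 1092 to 1146 FPKM in RA_OGTi, against 51.0 to 61.5 FPKM in the 6 mESC libraries. After RA, Stra8 held most of this sum. By the limma test below, 4 of the 8 were called higher and 1 lower with the inhibitor. Pluripotency genes were still expressed: 7 of them summed to 393.8 to 431.3 FPKM in RA_control and 339.8 to 354.9 FPKM in RA_OGTi, against 1938 to 1984 FPKM in the mESC libraries.

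The inhibitor shifted many genes by small amounts. With limma and Benjamini-Hochberg adjusted p under 0.05, 4679 of the 14006 genes were called (33.4%), 2587 higher (18.5%) and 2092 lower (14.9%) with the inhibitor. The median log2 fold change of all genes was 0.0036. The deposited values are scaled so that the typical gene has the same level in each library, which holds this median near 0. Of the called genes, 85.7% changed by less than 1.5-fold on the log2(FPKM + 1) scale. Called genes with at least a 2-fold change numbered 118 (0.842%), and of these 20 were higher and 98 lower. The 3 inhibitor libraries lay wholly above the 3 control libraries for 3425 genes (24.5%) and wholly below for 2947 (21.0%). The split of calls depended on scaling: 55.3% of calls were higher with the deposited FPKM and 66.66% when each library was scaled to the same sum (TPM). That scaling moved the median to 0.041. Below, a single value in brackets after a gene is its log2 fold change after RA, or in mESCs where these are named, and levels are means ± SD of 3 libraries. A pseudocount of 0.1 gave 297 called genes of at least 2-fold, limma-voom on recovered fragments gave 372, and a stricter filter gave 58.

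**Figure D1:**
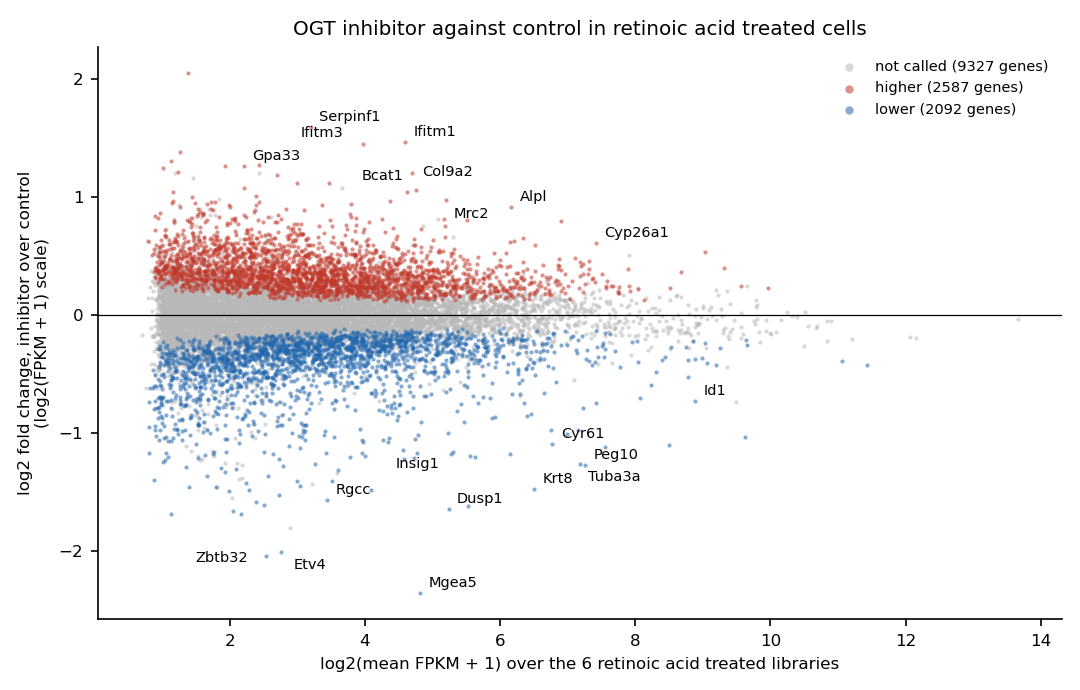
Log2 fold change of inhibitor over control against mean level in the 6 RA-treated libraries, on the log2(FPKM + 1) scale, with 1 point per gene (grey: not called; red: called higher; blue: called lower). The 2587 higher and 2092 lower genes lie mostly near 0, and the points beyond a log2 change of 1 are more often below than above, 98 against 20 called genes.

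On the log2(FPKM + 1) scale, the largest fall among protein-coding genes was that of Mgea5, which encodes O-GlcNAcase (chr19:45750261-45783520, minus strand, GRCm38). It stood at 46.8, 48.2 and 43.3 FPKM in the control libraries and 7.82, 9.56 and 7.39 FPKM in the inhibitor libraries. Every inhibitor library was far below every control library (log2 change -2.35 ± 0.076 SE, adjusted p = 2.2e-08), a 5.58-fold drop of the mean. Mgea5 also fell in undifferentiated cells, with a log2 fold change of -1.87, adjusted p = 5.8e-07, and the drop was larger after RA (difference -0.48, adjusted p = 0.022). Ogt itself (chrX:101640060-101684351, plus strand) read 24.6, 25.3 and 19.6 FPKM in the control libraries and 25.9, 28.5 and 24.7 FPKM in the inhibitor libraries. The groups overlapped and Ogt did not pass the test (log2 change 0.19 ± 0.096 SE, adjusted p = 0.17). In mESCs it read 20.2, 17.6 and 16.4 FPKM in control and 40.9, 41.4 and 39.9 FPKM in inhibitor-treated mESCs, a rise with a log2 fold change of 1.14, adjusted p = 0.00033. The inhibitor's effect on Ogt thus differed between the states (difference -0.95, adjusted p = 0.0029).

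Of 14 described genes of O-GlcNAc cycling and the hexosamine pathway, 6 fell and 1 rose, with a median of -0.01 that turned to 0.04 with TPM scaling. Besides Mgea5, the glucosamine-6-phosphate deaminase gene Gnpda2 fell (-0.43, adjusted p = 0.0094), and so did Pgm3 (-0.29) and Uap1 (-0.26), which act late in the making of UDP-GlcNAc. The entry enzyme Gfpt2 went from 19.9 ± 0.821 to 17.5 ± 0.196 FPKM (SD, n = 3; -0.17, adjusted p = 0.0085). Its paralogue Gfpt1 read 12.6, 12.9 and 12.1 FPKM in the control libraries and 10.9, 11.3 and 10.8 FPKM in the inhibitor libraries (log2 change -0.17 ± 0.06 SE, adjusted p = 0.046). Its call was lost under TPM scaling (adjusted p = 0.22) and when any 1 of the 6 RA-treated libraries was left out (adjusted p of 0.052 to 0.12). Uap1l1, a relative of the enzyme that makes UDP-GlcNAc, was the member that rose (0.31, adjusted p = 0.0092). With TPM scaling the list held 5 higher and 4 lower genes.

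Among genes that rose most, Serpinf1, which encodes the secreted factor PEDF (chr11:75409769-75422701, minus strand), stood first. It read 3.34, 3.74 and 3.64 FPKM in the control libraries and 13.4, 11.4 and 13.6 FPKM in the inhibitor libraries. The inhibitor libraries were all far above the highest control library (log2 change 1.59 ± 0.078 SE, adjusted p = 5.3e-07). In mESCs it stayed under 1 FPKM in all 6 libraries, and the inhibitor's effect differed between the states (difference 1.57, adjusted p = 9e-05). The membrane proteins Ifitm1 and Ifitm3, which block virus entry and mark early germ cells, rose together. Ifitm3 read 6.64, 7.4998 and 8.14 FPKM in the control libraries and 22.3, 19.9 and 23.9 FPKM in the inhibitor libraries (log2 change 1.45 ± 0.079 SE, adjusted p = 9e-07). Ifitm1 read 13.5, 10.3 and 11.98 FPKM in the control libraries and 35.5, 35.3 and 32.5 FPKM in the inhibitor libraries (log2 change 1.46 ± 0.087 SE, adjusted p = 1.9e-06). Both groups were tight and far apart for each gene, though reads of these similar genes may be shared. Of 13 described interferon-response and Ifitm genes, 5 rose and 2 fell, and Bst2, another antiviral membrane protein, went the other way, from 108 ± 2.01 to 59.3 ± 2.28 FPKM (-0.85, adjusted p = 7e-06).

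Other large rises covered matrix, heart and metabolic genes. The collagen IX chain gene Col9a2 rose from 16.5 ± 0.753 to 35.4 ± 3.25 FPKM and the collagen receptor gene Mrc2 from 23.8 ± 1.43 to 47.6 ± 1.401 FPKM (SD, n = 3). Alpl, the tissue-nonspecific alkaline phosphatase, rose from 48.9 ± 3.57 to 92.96 ± 5.25 FPKM. The branched-chain aminotransferase gene Bcat1 rose from 15.2 ± 0.674 to 32.3 ± 2.21 FPKM (log2 change 1.04 ± 0.051 SE, adjusted p = 5.3e-07). The cardiac homeobox gene Nkx2-5 read 2.41, 2.39 and 4.26 FPKM in the control libraries and 7.62, 7.92 and 8.34 FPKM in the inhibitor libraries, and the atrial myosin light chain gene Myl7 read 15.1, 10.9 and 13.5 FPKM in the control libraries and 23.7, 26.01 and 29.6 FPKM in the inhibitor libraries. Neither gene's groups overlapped (log2 fold changes 1.19 and 0.96). The intestinal surface antigen gene Gpa33 (1.26), the epoxide hydrolase gene Ephx2 (1.11), the mucin-type glycosyltransferase gene Galnt16 (1.01), the class II histocompatibility gene H2-Eb1 (0.95) and the adaptor subunit gene Ap3b2 (0.93) were also among the 15 largest rises. Adjusted p values of these 15 ran from 5.3e-07 for Serpinf1 to 0.0028 for Myl7.

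After Mgea5, the largest falls on the log2(FPKM + 1) scale were those of Zbtb32 and Etv4, whose means dropped by more as a ratio (6.503-fold and 5.81-fold, beside 5.58-fold for Mgea5). Zbtb32, a zinc finger repressor, read 7.89, 8.08 and 9.09 FPKM in the control libraries and 1.2003, 1.02 and 1.63 FPKM in the inhibitor libraries. Every inhibitor library was far below every control library (log2 change -2.04 ± 0.09 SE, adjusted p = 2.7e-07). Rgcc, a regulator of the cell cycle, read 13.4, 14.4 and 17.97 FPKM in the control libraries and 4.68, 4.602 and 4.08 FPKM in the inhibitor libraries (log2 change -1.57 ± 0.11 SE, adjusted p = 6.4e-06), while it was under 1 FPKM in all mESC libraries. Sfn, which encodes 14-3-3 sigma, fell from 8.82 ± 0.886 to 2.42 ± 0.294 FPKM and the thyroid hormone deiodinase gene Dio3 from 8.802 ± 0.202 to 3.08 ± 0.596 FPKM (SD, n = 3). The X-linked gene Pnma5 fell from 24.1 ± 0.549 to 8.03 ± 0.871 FPKM (-1.48, adjusted p = 3.3e-07). The rest of the 15 largest falls are given with their groups.

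More genes of the RA pathway rose than fell. Of 22 described genes of RA receptors, binding proteins, metabolism and direct targets (26 listed), 9 rose and 2 fell, with a median log2 fold change of 0.18. Cyp26a1, the hydroxylase that degrades RA and a classic direct target, read 137, 124 and 141 FPKM in the control libraries and 212, 194 and 209 FPKM in the inhibitor libraries. All inhibitor libraries exceeded all controls (log2 change 0.61 ± 0.096 SE, adjusted p = 0.00081), while mESCs held under 1 FPKM with or without inhibitor (difference of effects 0.56, adjusted p = 0.03). Dhrs3, which reduces retinal to retinol, rose from 5.44 ± 0.198 to 9.42 ± 1.16 FPKM and Aldh1a2, which makes RA, from 5.99 ± 0.359 to 9.29 ± 0.663 FPKM (0.56, adjusted p = 0.00059). Cyp26c1 rose from 1.82 ± 0.36 to 3.15 ± 0.33 FPKM (0.56, adjusted p = 0.0079). The receptor gene Rarb read 1.67, 1.83 and 1.29 FPKM in the control libraries and 2.24, 2.85 and 1.98 FPKM in the inhibitor libraries (log2 change 0.37 ± 0.11 SE, adjusted p = 0.029). Among other receptors, Rara rose (0.46) and Rarg fell (-0.37), as did the hydroxylase gene Cyp26b1 (-0.27). The meiosis gene Stra8, first found as an RA target, rose from 546 ± 14.2 to 719 ± 14.2 FPKM (0.397, adjusted p = 0.00041). The calls of this list depended on the pseudocount: with 0.1 in place of 1, 4 genes were called higher and 1 lower, and Cyp26a1, Cyp26c1 and Rarb were no longer called (adjusted p of 0.087, 0.25 and 0.15).

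RA receptors bind paired half-sites spaced by 5 bases, and the promoters of the target genes Cyp26a1 and Rarb are shown because each holds such an element. They cover 250 bases before to 50 after the start in RefSeq (GRCm38.p6), and capitals mark a match on either strand to GNTCA, 6 free bases and GNTCA, where the free bases are the spacer and the first base of the downstream half-site.
Cyp26a1 (chr19:37697558-37697857, plus strand): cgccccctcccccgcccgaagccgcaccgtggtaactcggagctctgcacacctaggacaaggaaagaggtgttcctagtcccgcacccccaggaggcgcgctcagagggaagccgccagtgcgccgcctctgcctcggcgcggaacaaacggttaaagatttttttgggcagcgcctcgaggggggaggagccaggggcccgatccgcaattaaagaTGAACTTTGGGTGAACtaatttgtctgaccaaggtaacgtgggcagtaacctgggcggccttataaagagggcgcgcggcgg
Rarb (chr14:16575427-16575726, minus strand): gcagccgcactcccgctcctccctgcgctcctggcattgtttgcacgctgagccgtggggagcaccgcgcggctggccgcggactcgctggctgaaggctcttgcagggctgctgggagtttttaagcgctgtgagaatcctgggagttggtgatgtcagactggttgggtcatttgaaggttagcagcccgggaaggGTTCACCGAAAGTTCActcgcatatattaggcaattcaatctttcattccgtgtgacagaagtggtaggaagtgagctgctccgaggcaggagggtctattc
The match began 32 bases before the start in Cyp26a1, on the minus strand, and 52 bases before it in Rarb, on the plus strand. The Rarb promoter is that of a RefSeq start 243680 bases from the deposited gene's start. Over all 32851 RefSeq promoters 0.861% held the element, and of the 14 list members with a promoter 2 did. The list includes direct targets of RA, so a higher share is favoured by that choice.

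Hox genes, which set position along the body axis and are switched on by RA in order, did not move as 1 block. Of 19 described Hox genes (28 listed), 6 rose and 2 fell (42.11% called, beside 33.4% over all genes), with a median of 0.16. Hoxb1, a gene of the hindbrain, went down: it read 62.1, 62.7 and 51.7 FPKM in the control libraries and 37.8, 37.2 and 33.3 FPKM in the inhibitor libraries. The 3 inhibitor libraries were all below the controls (log2 change -0.69 ± 0.08 SE, adjusted p = 0.00012). Hoxd9 rose from 1.87 ± 0.181 to 3.93 ± 0.226 FPKM and Hoxa5 from 2.37 ± 0.478 to 4.11 ± 0.133 FPKM (0.61, adjusted p = 0.002). Both Hox genes were under 1 FPKM in every mESC library. At a pseudocount of 0.1 the calls were 2 higher and 1 lower, and Hoxa5 lost its call (adjusted p = 0.093). Of 10 described Meis, Pbx and Cdx cofactor genes, 2 rose, among them Meis2 (0.36, adjusted p = 0.0062), and 1 fell. The share called was 30%, beside 33.4% over all genes. Meis2 lost its call at a pseudocount of 0.1 (adjusted p = 0.091). In that list 1 gene rose without RA_control replicate 2 or RA_OGTi replicate 3, 3 rose without RA_control replicate 1, and none fell without RA_control replicate 2 or 3 or RA_OGTi replicate 1 or 2. Cdx2 read 1.703, 1.07 and 0.966 FPKM in the control libraries and 1.41, 1.92 and 1.797 FPKM in the inhibitor libraries with overlapping groups (log2 change 0.28 ± 0.13 SE, adjusted p = 0.14), and without RA_control replicate 1 it was called higher (adjusted p = 0.030).

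Most core pluripotency genes, still expressed after RA, were lower with the inhibitor. Of 16 core pluripotency genes, 10 fell and 2 rose (median -0.26). Nanog, which stabilises the undifferentiated state, read 35.5, 36.1 and 39.7 FPKM in the control libraries and 26.7, 26.1 and 25.2 FPKM in the inhibitor libraries (log2 change -0.498 ± 0.054 SE, adjusted p = 9.1e-05). Sox2 fell from 58.3 ± 2.02 to 44.5 ± 2.21 FPKM and Pou5f1, which encodes OCT4, from 173 ± 18.9 to 133 ± 9.92 FPKM (log2 fold changes -0.38 and -0.37). The groups of all 3 genes were apart. None was called in mESCs, where the log2 fold changes were 0.02, -0.06 and -0.03, and the difference of effects was called for Nanog (-0.52, adjusted p = 0.0033) and Sox2 (-0.32, adjusted p = 0.021) but not for Pou5f1 (-0.35, adjusted p = 0.09). Tdgf1, the Nodal co-receptor Cripto, read 11.1, 9.55 and 10.9 FPKM in the control libraries and 3.43, 3.65 and 3.02 FPKM in the inhibitor libraries (log2 change -1.402 ± 0.071 SE, adjusted p = 5.9e-07). Dnmt3l, a cofactor of DNA methyltransferases, fell from 102 ± 7.98 to 60.5 ± 2.74 FPKM. The TGF-beta family gene Gdf3 rose instead, from 2.18 ± 0.353 to 4.23 ± 0.607 FPKM (0.71, adjusted p = 0.00026).

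Naive pluripotency genes split. Of 23, 9 fell and 6 rose, and with TPM scaling 7 fell and 7 rose. Dppa3 (Stella), a factor of oocytes and naive cells, read 4.92, 6.18 and 6.49 FPKM in the control libraries and 1.64, 1.86 and 1.198 FPKM in the inhibitor libraries (log2 change -1.42 ± 0.14 SE, adjusted p = 3.9e-05). In mESCs its log2 fold change was 0.301, adjusted p = 0.21 (difference -1.72, adjusted p = 0.00064). The LIF feedback inhibitor Socs3 fell from 13.8 ± 0.936 to 7.94 ± 0.426 FPKM. Esrrb went the other way: it read 8.505, 8.16 and 8.13 FPKM in the control libraries and 11.7, 11.2 and 13.2 FPKM in the inhibitor libraries (log2 change 0.49 ± 0.055 SE, adjusted p = 0.00011). Prdm14 rose from 0.885 ± 0.187 to 2.03 ± 0.32 FPKM and Spp1, which encodes osteopontin, from 26.2 ± 0.579 to 44.9 ± 0.988 FPKM. Zfp42 (Rex1) read 26.1, 26.7 and 25.8 FPKM in the control libraries and 22.5, 23.2 and 24.7 FPKM in the inhibitor libraries (log2 change -0.15 ± 0.049 SE, adjusted p = 0.033), a small fall whose call was lost with TPM scaling (adjusted p = 0.19) and without RA_control replicate 1 or 2 or RA_OGTi replicate 1 or 2. Of 9 described formative and primed genes, 3 fell, among them Etv5, and 2 rose, Zic2 from 4.397 ± 0.216 to 7.09 ± 0.359 FPKM and Sfrp2 from 9.19 ± 0.787 to 14.2 ± 0.761 FPKM. The summed pluripotency markers were 393.8 to 431.3 FPKM in control and 339.8 to 354.9 FPKM in inhibitor libraries. In bulk libraries, fewer cells of a type and less RNA per cell cannot be told apart.

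**Figure D2:**
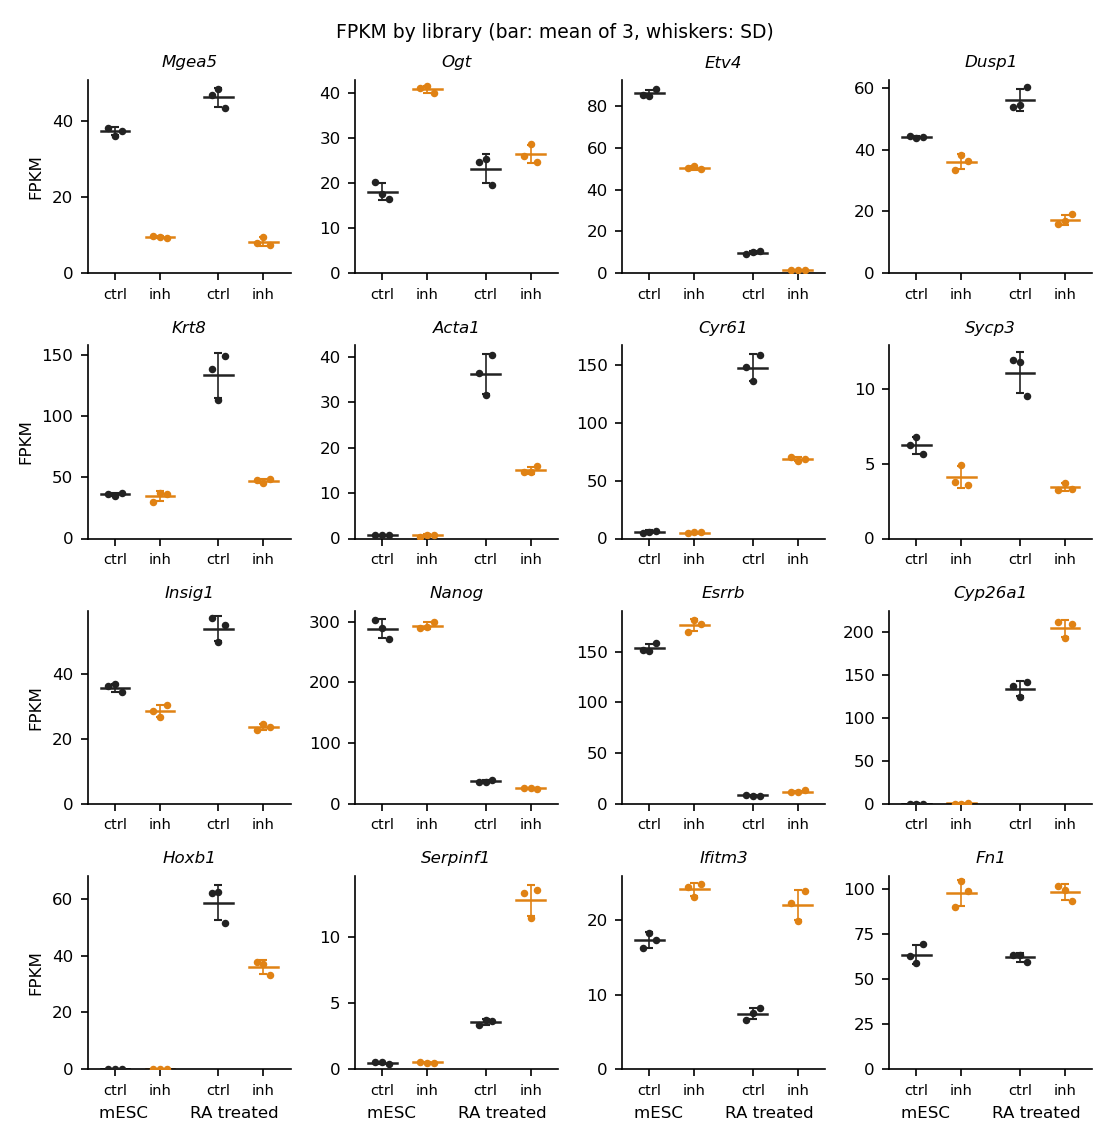
FPKM of 16 genes in each of the 12 libraries (points), with the mean of 3 (bar) and SD (whiskers), for control (ctrl, black) and inhibitor (inh, orange), in mESCs and RA-treated cells, each panel from 0. In RA-treated cells the control and inhibitor points do not overlap for any gene shown but Ogt. Krt8, Acta1, Cyr61, Nanog, Serpinf1, Cyp26a1 and Hoxb1 are among the genes whose points overlap in mESCs.

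Genes of the differentiated lineages moved both ways. Of 20 described extraembryonic endoderm genes (25 listed), 9 rose and 2 fell. The basement membrane gene Col4a2 rose from 30.7 ± 1.004 to 44.7 ± 1.39 FPKM. Gata4 read 6.54, 5.55 and 5.68 FPKM in the control libraries and 7.63, 7.53 and 8.31 FPKM in the inhibitor libraries (log2 change 0.35 ± 0.089 SE, adjusted p = 0.011), whereas the regulators Gata6 (-0.01, adjusted p = 0.92) and Sox17 (0.101, adjusted p = 0.58) were not called, and the receptor gene Cubn went from 1.36 ± 0.137 to 0.564 ± 0.00558 FPKM. The sum of 8 endoderm markers was 18.84 to 21.67 FPKM in control and 22.24 to 23.62 FPKM in inhibitor libraries. Of 13 described neural genes (25 listed), 4 rose and 5 fell: Irx3 rose from 5.16 ± 0.388 to 9.52 ± 0.955 FPKM and Dll3 from 1.73 ± 0.256 to 3.15 ± 0.44 FPKM, while Dll1 fell from 7.14 ± 0.336 to 4.62 ± 0.677 FPKM. Nnat fell from 78.9 ± 6.06 to 56.05 ± 1.93 FPKM after RA but rose in mESCs (0.61, adjusted p = 0.0036; difference -1.09, adjusted p = 0.0006). The progenitor gene Nes was not called (0.04, adjusted p = 0.81), and Pax6 and the mesoderm gene T did not reach the level for description. Of 11 described trophoblast genes, Gata3 (0.53) and Eomes (0.25) rose and Plet1 (-0.75) and Ascl2 (-0.44) fell, beside a value of 0.78 for Tfap2a. The call of Gata3 was lost at a pseudocount of 0.1 (adjusted p = 0.061). Of 12 described mesoderm genes, Foxf1 (0.62) and Eomes rose, and the rest were not called (16.67% called, beside 33.4% over all genes). Markers of fibroblasts summed to 28.78 to 33.76 FPKM in control and 33.45 to 34.26 FPKM in inhibitor libraries, with Dcn and Fap at 0 in all 6. Sums over 7 neural markers were 22.21 to 24.32 FPKM in control and 16.98 to 21.88 FPKM in inhibitor libraries, over 6 mesoderm markers 2.442 to 2.915 and 3.371 to 3.835 FPKM, and over 6 trophoblast markers 14.95 to 17.91 and 17.72 to 19.97 FPKM. Only 3 of these neural, 1 of the mesoderm and 5 of the trophoblast markers had a mean of 1 FPKM or more after RA. Of these markers, 1 neural was called lower, 1 trophoblast was called higher, and no mesoderm marker was called. Markers of blood and endothelial cells summed to 11.66 to 14.7 and 14.01 to 15.64 FPKM, with Ptprc and Hbb-bt at 0. The part of these cells in the results was not tested.

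Many simple epithelial genes fell. Of 25 described keratin and junction genes, 13 fell and 3 rose (median -0.27). Krt8, the type II keratin of simple epithelia, read 138, 113 and 149 FPKM in the control libraries and 47.4, 45.2 and 48.5 FPKM in the inhibitor libraries. The control libraries were spread more widely than the inhibitor libraries, and all lay above them (log2 change -1.47 ± 0.1 SE, adjusted p = 4.6e-06). Its partner Krt18 read 165, 147 and 194 FPKM in the control libraries and 82.1, 78.7 and 88.1 FPKM in the inhibitor libraries (log2 change -1.01 ± 0.097 SE, adjusted p = 4e-05), and Krt19 fell from 52.7 ± 6.57 to 22.7 ± 1.53 FPKM. Krt8 and Krt18 were not called in mESCs (-0.06, adjusted p = 0.75 and 0.06, adjusted p = 0.74), and the difference of effects was called for both (-1.41 and -1.07). The tight junction gene Cldn7 fell from 10.6 ± 1.1997 to 4.6002 ± 0.77 FPKM. Epcam (-0.495) and the E-cadherin gene Cdh1 (-0.21) fell by less, while Dsp (0.27) and S100a11 (0.38) rose.

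Many targets of YAP and SRF, factors that respond to the actin cytoskeleton, fell too. Of 28 described genes, 16 fell and 2 rose (median -0.26). Cyr61 and Ctgf encode secreted matrix proteins and are YAP targets. Cyr61 read 149, 136 and 159 FPKM in the control libraries and 70.3, 67.03 and 69.02 FPKM in the inhibitor libraries (log2 change -1.09 ± 0.11 SE, adjusted p = 7e-05) and Ctgf 107, 106 and 122 FPKM in the control libraries and 57.7, 63.4 and 65.4 FPKM in the inhibitor libraries (log2 change -0.83 ± 0.095 SE, adjusted p = 0.00011). The groups were apart for each, with mean control levels 2.15 and 1.796 times those with the inhibitor. The SRF target Acta1, skeletal muscle actin, read 36.5, 31.6 and 40.4 FPKM in the control libraries and 14.5, 14.7 and 15.9 FPKM in the inhibitor libraries (log2 change -1.21 ± 0.11 SE, adjusted p = 3.3e-05), and the calponin gene Cnn2 fell from 36.3 ± 2.77 to 18.9 ± 0.391 FPKM. In mESCs none of these 4 was called, and the difference of effects was called for each (Cyr61 -0.99, adjusted p = 0.0055; Acta1 -1.18, adjusted p = 0.002). Srf itself fell (-0.38), and so did Vcl (-0.43), Actg1 (-0.38) and Vim (-0.54), while Actb did not pass the test (0.01). Smooth muscle actin Acta2 did not either (-0.12).

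SRF binds the CArG box, a short element rich in A and T between CC and GG. Promoters of Acta1 and Cnn2 are shown because each fell and each holds the element, in capitals, 73 and 56 bases before the start.
Acta1 (chr8:123894726-123895025, minus strand): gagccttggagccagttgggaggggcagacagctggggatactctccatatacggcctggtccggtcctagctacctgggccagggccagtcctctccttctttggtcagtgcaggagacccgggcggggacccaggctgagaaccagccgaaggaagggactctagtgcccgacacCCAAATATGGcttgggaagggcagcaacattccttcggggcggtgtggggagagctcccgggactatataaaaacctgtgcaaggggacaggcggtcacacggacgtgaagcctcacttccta
Cnn2 (chr10:79988350-79988649, plus strand): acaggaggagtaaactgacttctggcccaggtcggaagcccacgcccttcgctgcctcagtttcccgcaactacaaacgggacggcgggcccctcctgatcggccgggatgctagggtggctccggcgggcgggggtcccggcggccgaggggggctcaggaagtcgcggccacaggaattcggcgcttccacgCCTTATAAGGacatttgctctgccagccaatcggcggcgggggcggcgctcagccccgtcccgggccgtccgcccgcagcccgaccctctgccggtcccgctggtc
Of the 24 YAP and SRF targets with a RefSeq promoter, 6 held a CArG box on either strand, against 1.63% of all promoters. The list was chosen as targets of these factors, so a high share is favoured by that choice. Those with the element were Acta1, Actg1, Cnn2, Myl9, Srf and Vcl. Of these 5 fell and Myl9 was not called (-0.03), beside 16 falls among the 28 described genes of the list.

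Immediate-early genes, which respond within minutes to growth signals, had the highest share of falls of the 45 lists: 14 of 18 described genes fell and 1, Btg1, rose (median -0.41). Dusp1, a phosphatase that switches off MAP kinases, read 53.8, 54.5 and 60.3 FPKM in the control libraries and 16.1, 16.9 and 19.2 FPKM in the inhibitor libraries. The groups were tight and far apart (log2 change -1.64 ± 0.07 SE, adjusted p = 2.4e-07), a 3.23-fold drop of the mean. In mESCs Dusp1 fell by far less (-0.28, adjusted p = 0.033; difference -1.36, adjusted p = 9e-05). The mRNA decay factor gene Zfp36 fell from 3.04 ± 0.474 to 1.04 ± 0.195 FPKM, and Ier3 from 24.7 ± 3.09 to 13.3 ± 0.318 FPKM. Fos (-0.74), Junb (-0.54) and Nr4a1 (-0.44) fell too, while Egr1 did not pass the test (-0.23). The promoter of Dusp1 is shown as that of the gene of this list that fell most. Capitals mark a cAMP response element, TGACGTCA, which 1.79% of all promoters held on either strand, and 2 of the 15 list members with a promoter.
Dusp1 (chr17:26508423-26508722, minus strand): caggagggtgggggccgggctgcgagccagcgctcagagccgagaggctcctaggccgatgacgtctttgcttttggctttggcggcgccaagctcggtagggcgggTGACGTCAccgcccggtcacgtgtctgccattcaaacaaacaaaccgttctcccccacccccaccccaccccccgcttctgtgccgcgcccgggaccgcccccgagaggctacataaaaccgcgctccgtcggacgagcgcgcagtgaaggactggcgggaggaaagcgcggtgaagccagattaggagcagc
The element began 143 bases before the start.

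ERK signalling feeds back on itself through Sprouty and dual-specificity phosphatase genes and acts through ETS factors. Of 20 described genes of this group, 11 fell and 3 rose. Etv4, an ETS factor downstream of FGF receptors (chr11:101769742-101785371, minus strand), read 8.97, 10.1 and 10.5 FPKM in the control libraries and 1.68, 1.65 and 1.74 FPKM in the inhibitor libraries. Within-group spread was small beside the gap (log2 change -2.01 ± 0.051 SE, adjusted p = 3.1e-09), a 5.81-fold drop. Etv4 also fell in mESCs, from a level of 85.4, 85.1 and 88.3 FPKM in control and 50.4, 51.6 and 49.9 FPKM in inhibitor-treated mESCs (-0.76, adjusted p = 7.4e-05), and fell further after RA (difference -1.25, adjusted p = 2.8e-05). Its relative Etv5 fell after RA (-0.45) and was not called in mESCs (-0.01; difference -0.44, adjusted p = 0.011). Dusp6 fell from 27.8 ± 1.37 to 16.1 ± 1.18 FPKM, and Spry4 went from 2.02 ± 0.374 to 0.784 ± 0.121 FPKM. Both fell in mESCs (-0.83 and -0.63). For Dusp6 the difference was not called (0.07, adjusted p = 0.78), and for Spry4 it is a description only (-0.12).

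Other signalling genes were mixed. Of 21 described Nodal and BMP genes, 6 fell and 2 rose (38.1% called, beside 33.4% over all genes). The BMP target Id1 read 575, 564 and 625 FPKM in the control libraries and 351, 335 and 378 FPKM in the inhibitor libraries (log2 change -0.73 ± 0.062 SE, adjusted p = 2e-05), and the Nodal inhibitor gene Lefty2 fell from 3.85 ± 0.375 to 1.97 ± 0.249 FPKM. Of 29 described Wnt genes, 9 rose and 3 fell (41.38% called). The secreted Wnt antagonists Sfrp1 and Sfrp5 rose from 12.8 ± 0.487 to 23.3 ± 0.935 FPKM and from 9.58 ± 1.33 to 17.5 ± 0.267 FPKM. The ligand gene Wnt5b (0.78) and the receptor gene Fzd1 (0.64) rose, and the feedback target Axin2 did not pass the test (-0.04).

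Many extracellular matrix genes rose. Of 36 described matrix and integrin genes, 17 rose and 3 fell (median 0.18). Fibronectin, Fn1, read 63.4, 63.1 and 59.2 FPKM in the control libraries and 102, 99.1 and 93.1 FPKM in the inhibitor libraries (log2 change 0.65 ± 0.071 SE, adjusted p = 8.9e-05). Its receptor subunit Itga5 rose from 24.4 ± 1.29 to 36.7 ± 1.04 FPKM (0.57, adjusted p = 2.4e-05). Fn1 rose in mESCs too (0.61, adjusted p = 0.0018), and the difference was not called (0.04, adjusted p = 0.84). The collagen IV chain Col4a1 (0.35), laminin chains Lamb1 (0.37) and Lamc1 (0.28), the collagen chaperone Serpinh1 (0.46) and the protease Mmp14 (0.504) rose, and the inhibitor Timp3 fell from 5.88 ± 0.224 to 3.75 ± 0.134 FPKM. Thbs1 (-0.48) and Plod2 (-0.25) fell too.

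More genes of the secretory pathway rose than fell. Of 41 described Golgi and ER glycosyltransferases, which build sugars on secreted proteins, 16 rose and 5 fell (median 0.12). Fut4 rose from 3.09 ± 0.219 to 5.14 ± 0.126 FPKM, the heparan sulfate polymerase gene Ext2 from 18.3 ± 1.01 to 26.8 ± 1.57 FPKM and St6gal1 from 4.13 ± 0.299 to 6.27 ± 0.451 FPKM, while Gcnt1 fell from 9.27 ± 0.638 to 6.22 ± 0.37 FPKM. Eogt, which attaches O-GlcNAc to secreted proteins, fell by 0.23. Of 31 lysosome and autophagy genes, 11 rose and 3 fell (45.16% called, beside 33.4% over all genes). Ctsa rose from 11.9 ± 1.04 to 19.2 ± 1.03 FPKM, the hexosaminidase gene Hexa from 31.1 ± 1.52 to 46.5 ± 4.48 FPKM, Gaa from 31.1 ± 1.24 to 41.3 ± 1.58 FPKM and the sterol exporter gene Npc1 from 9.84 ± 0.428 to 12.8 ± 0.593 FPKM. The regulator Tfeb fell (-0.26). Without RA_OGTi replicate 3, 7 lysosome and autophagy genes rose. The 5 falls of glycosyltransferases became 2 or 3 without any 1 RA-treated library but RA_OGTi replicate 3.

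Most genes of sterol and fatty acid synthesis fell. Of 33 described genes, 22 fell and 2 rose (median -0.34). Insig1, the sterol sensor that restrains SREBP processing, read 56.9, 49.6 and 54.9 FPKM in the control libraries and 22.7, 24.6 and 23.5 FPKM in the inhibitor libraries (log2 change -1.15 ± 0.063 SE, adjusted p = 9e-07). The desaturase gene Scd2 fell from 255 ± 18.9 to 117 ± 15.8 FPKM and the sterol carrier gene Stard4 from 13.3 ± 0.363 to 7.53 ± 0.555 FPKM. Both transcription factor genes, Srebf2 (-0.46) and Srebf1 (-0.39), fell, as did Hmgcs1 (-0.68), the synthase early in the sterol pathway. In mESCs 6 of the 33 were called higher and 3 lower, and the difference of effects was called lower for 14 and higher for 1. Among them, Insig1 fell less in mESCs (-0.32; difference -0.83, adjusted p = 0.00046).

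Of 26 glycolysis genes, 8 fell and 1 rose (34.62% called, beside 33.4% over all genes), with a median of -0.04 that became 0.0053 with TPM scaling. The glucose transporter gene Slc2a1 read 341, 309 and 343 FPKM in the control libraries and 192, 209 and 209 FPKM in the inhibitor libraries (log2 change -0.699 ± 0.097 SE, adjusted p = 0.00038). Aldoc fell from 22.6 ± 2.98 to 12.6 ± 1.63 FPKM, Pfkfb3 from 11.7 ± 0.914 to 7.53 ± 0.587 FPKM and Pgk1 from 611 ± 81.5 to 459 ± 14.7 FPKM. Of 23 threonine, serine and one-carbon genes, 5 rose and 5 fell (43.48% called). Tyms, which makes thymidylate, rose from 4.83 ± 0.0708 to 7.79 ± 0.173 FPKM and the glycine cleavage gene Gcsh fell from 41.4 ± 2.79 to 30.2 ± 1.399 FPKM. Leaving out 1 RA-treated library gave 2 to 5 rises and 2 to 5 falls in that list, with 2 rises without RA_OGTi replicate 3 and 2 falls without RA_control replicate 1 or 3 or RA_OGTi replicate 2. Of 29 NRF2 and glutathione genes, 4 rose and 4 fell (27.59% called, beside 33.4% over all genes). Keap1 (0.49) and Gss (0.45) were among the rises and Ephx1 (-0.64) and Nqo1 (-0.34) among the falls. With TPM scaling 6 rose and 3 fell, and 2 rose without RA_control replicate 2 or RA_OGTi replicate 3.

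**Figure D3:**
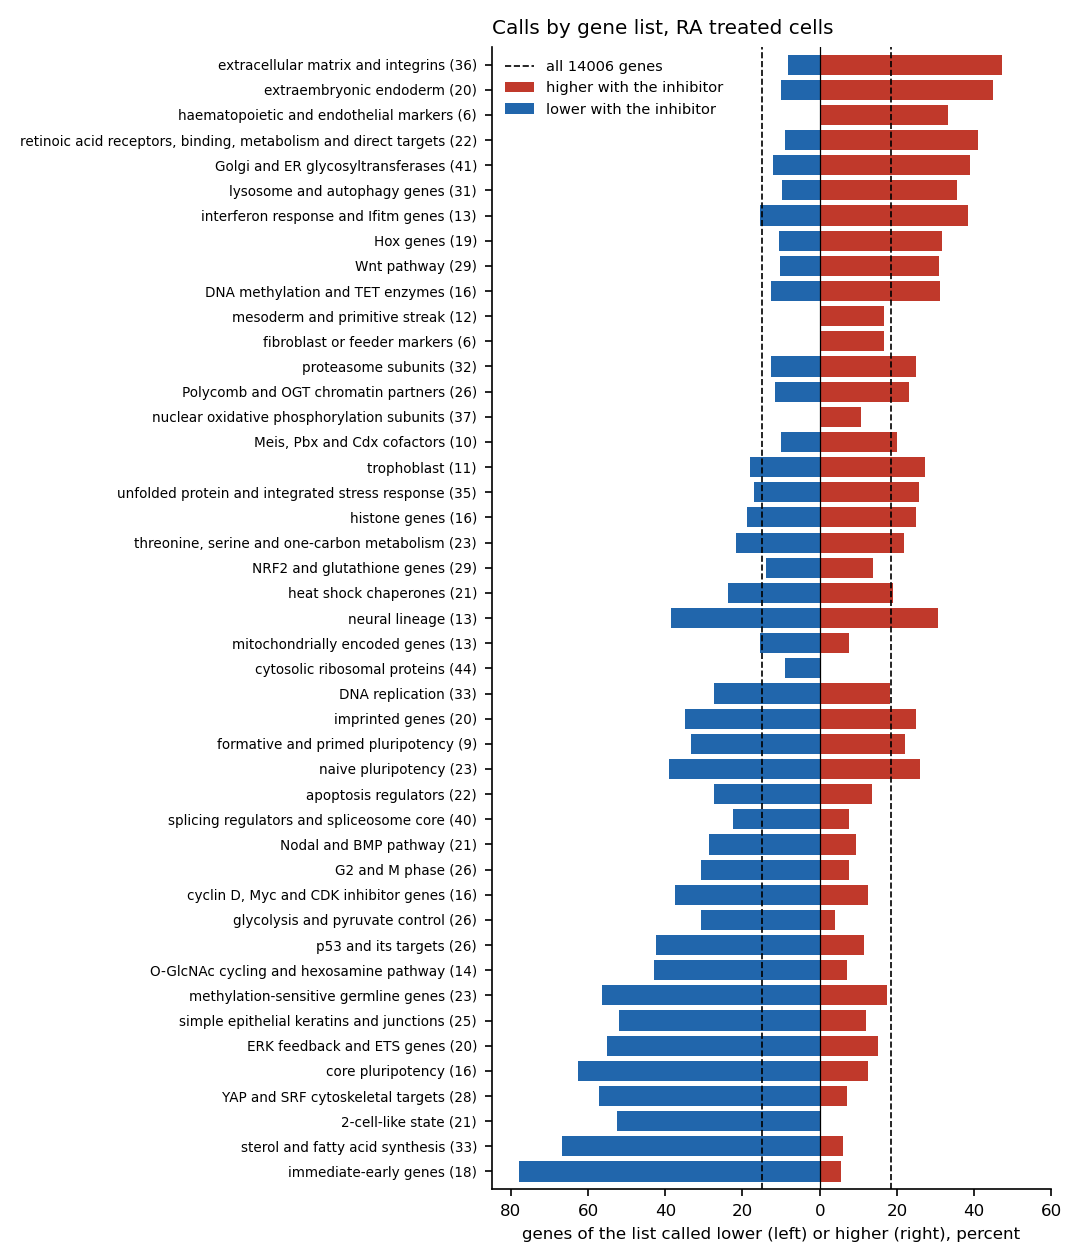
Percent of each list's described genes (number in brackets) called lower (blue, left) or higher (red, right) with the inhibitor in RA-treated cells. Dashed lines mark the same over all 14006 genes, 14.9% lower and 18.5% higher, and immediate-early, sterol and core pluripotency genes lie farthest to the left.

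Many germline genes fell. Of 23 described methylation-sensitive germline genes (28 listed), 13 fell and 4 rose (median -0.38). Sycp3, a core protein of the synaptonemal complex of meiosis, read 11.95, 11.8 and 9.51 FPKM in the control libraries and 3.24, 3.72 and 3.298 FPKM in the inhibitor libraries (log2 change -1.45 ± 0.11 SE, adjusted p = 9.2e-06). The piRNA factor gene Piwil2 read 7.67, 7.43 and 7.73 FPKM in the control libraries and 2.7998, 2.84 and 2.79 FPKM in the inhibitor libraries, with the groups far apart (log2 change -1.18 ± 0.05 SE, adjusted p = 2.4e-07). The tubulin gene Tuba3a, which has near-identical copies, fell from 204 ± 12.6 to 84.1 ± 3.65 FPKM, and Tex101 went from 2.83 ± 0.263 to 0.425 ± 0.388 FPKM. Outside the list, the synaptonemal gene Syce3 fell from 6.17 ± 0.9 to 1.59 ± 0.552 FPKM. Piwil2 fell in mESCs as well (-0.65, adjusted p = 0.00021), by less than after RA (difference -0.53, adjusted p = 0.002). Zcwpw1 (0.54), Syce1 (0.49), Tdrd1 (0.46) and Rpl10l (0.42) rose.

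Germline promoters of this kind often carry E-boxes, CACGTG, and the promoter of Sycp3 is shown with its 2 copies in capitals, which began 64 and 43 bases before the start.
Sycp3 (chr10:88459337-88459636, plus strand): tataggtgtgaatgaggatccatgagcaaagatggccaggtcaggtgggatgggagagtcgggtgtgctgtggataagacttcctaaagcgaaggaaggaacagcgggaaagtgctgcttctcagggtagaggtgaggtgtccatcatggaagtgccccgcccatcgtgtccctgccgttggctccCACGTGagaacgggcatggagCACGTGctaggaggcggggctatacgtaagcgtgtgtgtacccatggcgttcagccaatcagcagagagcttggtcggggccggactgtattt
Of the 21 germline genes with a RefSeq promoter, 10 held an E-box, against 7.15% of all promoters. Among these 10, Sycp3, Ddx4 (-1.0002), Mov10l1 (-0.804), Brdt (-0.52) and Mael (-0.27) fell, Tdrd1 rose, and Hormad1, Stk31, Sycp1 and Taf7l were not called.

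Genes of the 2-cell embryo also switch on in a few mESCs, and of 21 such genes described, 11 fell and none rose by limma (median -0.42). At an unadjusted p under 0.05, 12 were lower and 0 higher, and limma-voom called 11 lower and 0 higher. The inhibitor libraries lay wholly below the controls for 14 of them, beside 21.0% of all genes described. Usp17lb fell from 12.5 ± 0.538 to 4.64 ± 0.658 FPKM, Tdpoz4 from 3.34 ± 1.07 to 0.879 ± 0.194 FPKM and Zfp352 from 2.44 ± 0.425 to 0.878 ± 0.274 FPKM. Most of these genes belong to near-identical families whose reads may be shared, so values of single copies are uncertain. Of 20 described imprinted genes, 7 fell and 5 rose. Peg10 read 225, 225 and 197 FPKM in the control libraries and 90.6, 91.04 and 84.1 FPKM in the inhibitor libraries (log2 change -1.27 ± 0.075 SE, adjusted p = 1.9e-06), and the growth inhibitor Cdkn1c read 34.03, 32.4 and 38.7 FPKM in the control libraries and 16.7, 15.7 and 16.7 FPKM in the inhibitor libraries (log2 change -1.05 ± 0.075 SE, adjusted p = 6e-06). Cdkn1c was not called in mESCs (-0.04, adjusted p = 0.78; difference -1.01, adjusted p = 0.00044). The noncoding RNA H19 rose from 51.7 ± 4.81 to 69.1 ± 8.102 FPKM (0.41, adjusted p = 0.0092), and Igf2r (0.36) and Grb10 (0.32) rose too.

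Stress genes did not follow 1 direction. Of 35 described genes of the unfolded protein and integrated stress responses, 9 rose and 6 fell (42.86% called, beside 33.4% over all genes). With TPM scaling 14 rose and 6 fell. Ddit3, which encodes the stress factor CHOP, read 76.8, 71.3 and 84.9 FPKM in the control libraries and 40.3, 40.5 and 46.2 FPKM in the inhibitor libraries (log2 change -0.86 ± 0.099 SE, adjusted p = 0.00012). In mESCs Ddit3 rose (0.42, adjusted p = 0.029), and the effects differed (difference -1.28, adjusted p = 0.0006). Ddit4 fell from 188 ± 12.6 to 94.99 ± 6.07 FPKM, the chaperone gene Hspa5 from 107 ± 2.73 to 74.97 ± 4.08 FPKM and Atf4 by 0.33 on the log2 scale, while Stc2 (0.57) and Atf5 (0.55) rose. Of 21 heat shock chaperones, 5 fell and 4 rose (42.86% called). The inducible pair Hspa1a and Hspa1b, which share most of their sequence, fell from 19.9 ± 1.99 to 9.08 ± 1.07 FPKM and from 24.9 ± 1.06 to 11.4 ± 0.462 FPKM. The small chaperone Hspb1 fell from 516 ± 25.6 to 359 ± 29.97 FPKM and the mitochondrial Hspe1 rose from 159.8 ± 6.32 to 204 ± 12.2 FPKM. Without RA_OGTi replicate 1 or 3, 2 chaperone genes rose. Of 26 described genes of p53 and its targets, 11 fell and 3 rose. Trp53 itself rose from 22.4 ± 1.44 to 32.8 ± 3.204 FPKM (0.53, adjusted p = 0.00056), while its targets Pmaip1 (from 22.2 ± 1.54 to 13.8 ± 1.14 FPKM), Bbc3 (from 41.5 ± 1.31 to 29.4 ± 2.27 FPKM), Ccng1 (-0.52) and Mdm2 (-0.39) fell. Of 22 apoptosis regulators, 6 fell and 3 rose (40.91% called). Mcl1 fell from 251 ± 10.2 to 185 ± 5.74 FPKM and Casp8 rose from 1.25 ± 0.196 to 2.15 ± 0.391 FPKM.

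Of 26 genes of G2 and M phase, 8 fell and 2 rose (38.46% called, beside 33.4% over all genes). Kif11 fell from 3.45 ± 0.38 to 1.51 ± 0.0977 FPKM and Hmmr from 17.2 ± 1.39 to 11.6 ± 0.844 FPKM. Of 33 DNA replication genes, 9 fell and 6 rose (45.45% called), and with TPM scaling 7 fell and 11 rose. Without RA_control replicate 3 or RA_OGTi replicate 1, 5 replication genes fell, and without RA_control replicate 1 or 2 or RA_OGTi replicate 3, 3 rose. Ccne1 fell from 42.3 ± 3.46 to 30.2 ± 1.004 FPKM and Mcm4 from 52.8 ± 1.85 to 42.9 ± 1.49 FPKM, and Rfc5 rose from 23.8 ± 1.79 to 30.4 ± 2.39 FPKM. Of 16 cyclin D, Myc and CDK inhibitor genes, 6 fell, among them Cdkn1c (-1.05), Ccnd1 (-0.48), Rb1 (-0.41) and Myc (-0.28), and 2 rose, with Cdkn2a from 48.7 ± 3.86 to 70.2 ± 2.29 FPKM. Of 16 DNA methylation and TET genes, 5 rose, among them Tet3 (0.29) and Dnmt1 (0.19), and 2 fell (43.75% called). Of 26 Polycomb genes and chromatin partners of OGT, 6 rose (23.08%, beside 18.5% over all genes), among them Hcfc1 (0.38), whose protein is cut by OGT, and Cbx2 (0.24), while Ezh2 (-0.22) and 2 others fell. That list's median was -0.01, and 0.03 with TPM scaling, where 7 rose and none fell. Without RA_control replicate 2 or RA_OGTi replicate 1 or 3, 1 fell. Of 16 described histone genes, 4 rose and 3 fell (43.75% called). Hist1h2bc rose after RA (0.49, adjusted p = 0.0031) and fell in mESCs (-0.45, adjusted p = 0.021).

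Housekeeping groups are given beside the 33.4% called over all genes. Of 44 cytosolic ribosomal protein genes, 4 fell and none rose by limma (9.09% called), with log2 fold changes from -0.35 to 0.07. At an unadjusted p under 0.05, 10 were lower and 0 higher. The count of falls was 10 with TPM scaling, 14 with limma-voom, 9 without RA_control replicate 2, and 1 without RA_control replicate 1 or 3 or RA_OGTi replicate 1 or 2. Of 37 nuclear oxidative phosphorylation genes, 4 rose and none fell by limma (7 and 4 at an unadjusted p under 0.05), 11 rose and 2 fell with TPM scaling, and 8 and 2 with limma-voom. Without RA_OGTi replicate 3, 2 rose. Of 13 mitochondrially encoded genes, 2 fell and 1 rose, beside the shares of fragments given above. mt-Co1 read 3163 ± 113 FPKM in control and 2358 ± 129.7 FPKM in inhibitor-treated cells (SD, n = 3; -0.42, adjusted p = 0.002), and its call was lost with no filter on low values (adjusted p = 0.079). Of 32 proteasome genes, 8 rose and 4 fell (37.5%), and 15 and 1 with TPM scaling. Without RA_control replicate 1 or RA_OGTi replicate 3, 4 proteasome genes rose. Of 40 splicing genes, 9 fell and 3 rose, and 5 and 6 with TPM scaling. Without RA_OGTi replicate 3, 5 splicing genes fell.

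More genes were called for the inhibitor after RA than in mESCs. Over the same 14006 genes, 1121 were called in mESCs (8.0%), 672 higher (4.8%) and 449 lower (3.21%), and 7 of the calls reached 2-fold (0.05%). A test of the difference of effects called 1122 genes (8.01%), 565 with the higher log2 fold change after RA (4.03%) and 557 with the lower (3.98%). Of the difference calls, 67 reached 2-fold (0.478%). Genes called in both states numbered 731, which is 15.6% of the calls after RA and 65.2% of those in mESCs. Of these, 689 had the same sign and 42 opposite signs. The log2 fold changes in the 2 states, which share no library, had a Pearson correlation of 0.375 and a Spearman correlation of 0.410 across 14006 genes, which are not independent replicates. The mESC count fell to 349 without mESC_OGTi replicate 2, to 417 without mESC_control replicate 2, to 474 without mESC_control replicate 1 and to 521 without mESC_OGTi replicate 3. The count for the difference fell to 625 without RA_OGTi replicate 1, to 694 without mESC_OGTi replicate 2, to 714 without RA_control replicate 1 and to 731 without mESC_control replicate 2. The smallest count after RA with any 1 RA-treated library left out was 3554.

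**Figure D4:**
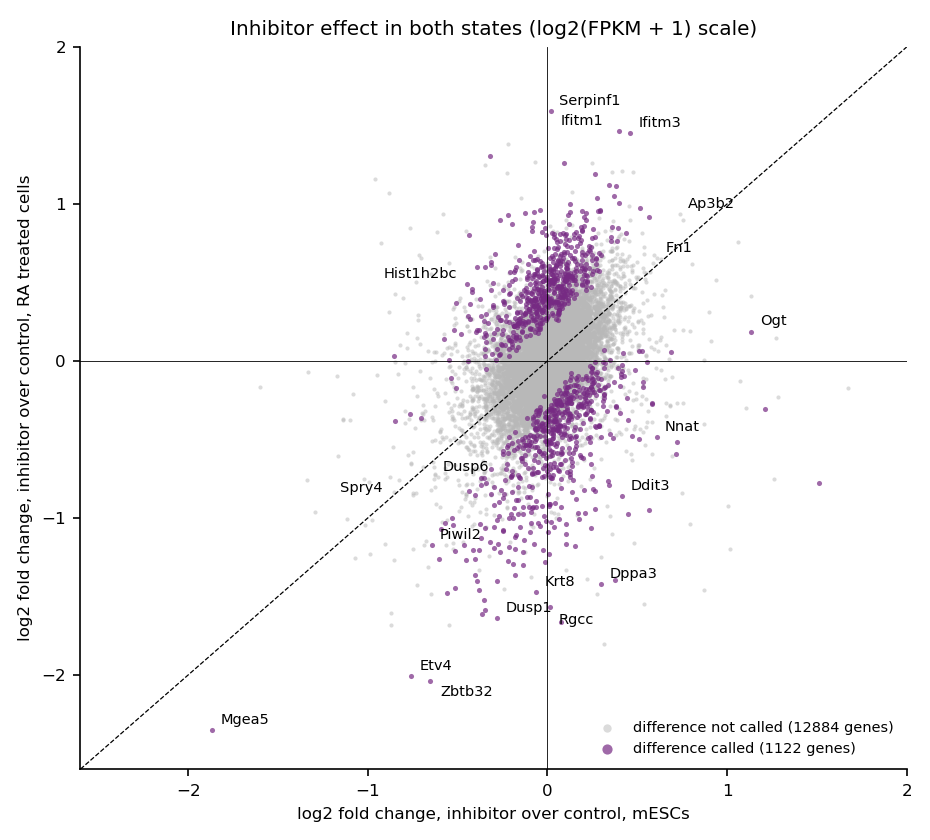
Log2 fold change of inhibitor over control after RA (vertical axis) against that in mESCs (horizontal axis), on the log2(FPKM + 1) scale, with 1 point per gene and the line of equal effects dashed; 1 gene lies outside the axes. The 1122 genes called for the difference (purple) lie off that line, mostly along the vertical axis, and Mgea5 lies low in both states while Ogt lies to the right.

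Calls were also counted by chromosome, after the values were seen. Of 517 described genes on chromosome X, 35 rose (6.77%) and 120 fell (23.21%), with a median log2 fold change of -0.087. On the autosomes 13.9% to 23.6% of genes rose and 12.3% to 18.0% fell. Among protein-coding X-linked genes 34 of 423 rose and 107 fell. TPM scaling gave 48 higher and 103 lower X-linked genes, and limma-voom 41 and 126. In mESCs 7 X-linked genes were called higher and 28 lower. After Pnma5, the largest X-linked falls among protein-coding genes included Dkc1, the pseudouridine synthase of the H/ACA particle, which read 66.9, 63.6 and 62.95 FPKM in the control libraries and 26.2, 28.7 and 27.8 FPKM in the inhibitor libraries (log2 change -1.196 ± 0.056 SE, adjusted p = 3.7e-07). Usp26 (-1.13), Xlr3c (-0.98) and Fthl17d (-1.19) also fell, and of these Xlr3c and Fthl17d have near-identical copies. Renbp, an epimerase of N-acetylglucosamine, rose from 10.96 ± 0.824 to 18.6 ± 3.32 FPKM (0.699, adjusted p = 0.00081).

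**Figure D5:**
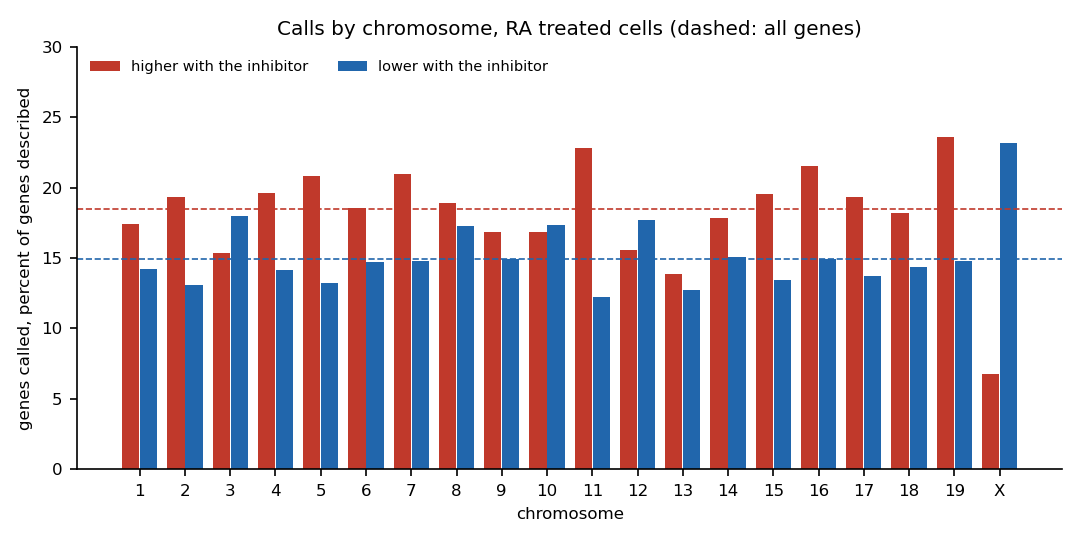
Percent of described genes on each chromosome called higher (red) or lower (blue) with the inhibitor in RA-treated cells, with the shares over all genes as dashed lines. Chromosome X has 6.77% higher and 23.21% lower, while on the autosomes 13.9% to 23.6% are higher and 12.3% to 18.0% lower.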

How the data were processed

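The values are FPKM per gene as deposited, 1 table of 54555 genes (754 without a symbol) in 12 libraries. The tools named in the submitters' processing notes are HISAT2 2.0.5 and featureCounts 1.5.0, with the build GRCm38. The sources used here do not state the strand setting, the filters or the FPKM formula. Per the labels' protocols, RNA was extracted with TRIzol and libraries made with an NEBNext Ultra kit. FPKM multiplied by gene length and divided by 1 constant per library, fitted to the values, gave whole fragment numbers in 100% of cases (tolerance 0.02), and the deposited FPKM carry median-of-ratios scaling, so that rescaling left every value as it was.

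The log2(FPKM + 1) values of 14866 genes, each at 1 FPKM or above in 3 or more of the 12 libraries, went into 1 limma fit (3.58.1, R 4.3.3) of the 4 groups with a variance trend. P-values were two-sided, Benjamini-Hochberg adjusted over all of them, and called under 0.05, which gave 4738 calls (31.9%) for the inhibitor after RA. This scale understates changes of low genes. Of the 14006 genes described, 13649 had their ID in GENCODE M21, 12832 at the same coordinates. Named genes are the 15 largest protein-coding rises and 15 falls among called genes with groups apart and a mean of 5 FPKM or more, the up to 4 largest changes with adjusted p under 0.01 and groups apart from each list with 3 or more calls, and 21 fixed genes. Other genes are named after their values were seen, to describe their lists, and a few are not reported here. The members, the 45 lists and the rule were chosen with earlier results of these data known. Promoters (135 of 178 named genes) are from RefSeq, GRCm38.p6. The scripts were tested on simulated data. Replicates differed by more than sampling noise (chi-square per gene of 3.74 to 9.96). Python 3.11.15, pandas 2.3.3, numpy 2.4.6 and matplotlib 3.10.9 were used.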

Additional observations from a re-analysis of the deposited data

Results flagged for a closer look

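For each named gene given here other than Cubn, Tex101 and Tfap2a, the inhibitor's effect differed between RA-treated cells and mESCs. The test was a limma test of the difference with adjusted p under 0.05. Cubn, Tex101 and Tfap2a entered through a single group after RA, so their values are a description only. Values below are differences of the 2 log2 fold changes, after RA minus in mESCs, so a negative value means a lower fold change after RA. Cell state and time since the start of inhibitor cannot be told apart in these differences. With 3 libraries a group, single libraries were not tested for standing apart.

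Of O-GlcNAc genes, the difference was -0.95 for Ogt, -0.48 for Mgea5 and -0.37 for Gfpt1. Among pluripotency genes it was -1.72 for Dppa3, -1.01 for Tdgf1, -0.58 for Dnmt3l, -0.56 for Socs3, -0.52 for Nanog, -0.44 for Etv5 and -0.32 for Sox2, and it was above 0 for Spp1 at 0.703, Gdf3 at 0.66 and Esrrb at 0.297. Among RA and Hox genes it was 0.67 for Hoxd9, 0.56 for Cyp26a1, 0.47 for Dhrs3 and -0.701 for Hoxb1.

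Genes with the largest rises after RA gave 1.57 for Serpinf1, 1.17 for Gpa33, 1.07 for Ifitm1, 1.003 for Myl7, 0.99 for Ifitm3, 0.92 for Nkx2-5, 0.76 for Bcat1, 0.73 for Ephx2, 0.68 for Col9a2, 0.67 for H2-Eb1, 0.61 for Galnt16, 0.46 for Mrc2 and 0.35 for Alpl. Those with the largest falls gave -1.58 for Rgcc, -1.38 for Zbtb32, -1.25 for Etv4, -1.17 for Sfn, -1.05 for Dio3 and -0.92 for Pnma5. Both sets were chosen by their change after RA, which is part of the difference, so a difference of the same sign is favoured by the choice. Genes named from lists, above and below, were also chosen by the size of their change after RA. Other than for the fixed genes, the same limit holds for them. Over all genes described, 8.01% were called for the difference.

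The epithelial and cytoskeletal genes named here were below 0, at -1.41 for Krt8, -1.18 for Acta1, -1.096 for Cldn7, -1.07 for Krt18, -0.99 for Cyr61, -0.97 for Ctgf, -0.94 for Cnn2 and -0.71 for Krt19. Lineage genes gave -1.09 for Nnat, -0.699 for Dll1 and -0.398 for Plat. Values of -0.73 for Cubn and 0.64 for Tfap2a are a description only. Germline, 2-cell-like and imprinted genes gave -1.01 for Cdkn1c, -0.97 for Tdpoz4, -0.93 for Sycp3, -0.86 for Tuba3a, -0.82 for Peg10, -0.66 for Usp17lb, -0.53 for Piwil2 and -0.51 for Slc22a18. The value of -1.08 for Tex101 is a description only.

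Stress and apoptosis genes gave -1.28 for Ddit3, -0.902 for Hspa1a, -0.84 for Ddit4, -0.76 for Hspa1b, -0.58 for Hspb1, -0.46 for Pycr1, -0.41 for Mcl1, -0.38 for Bbc3 and 0.699 for Casp8. Metabolic genes gave -0.94 for Scd2, -0.83 for Insig1, -0.72 for Aldoc, -0.53 for Pfkfb3, -0.4999 for Slc2a1, -0.39 for Stard4, -0.38 for Gcsh and 0.55 for Tyms.

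Signalling genes gave -1.36 for Dusp1, -0.61 for Ccnd1, -0.53 for Id1, 0.38 for Sfrp1 and 0.73 for Wnt5b. Matrix, glycosyltransferase and interferon genes gave -0.85 for Bst2, -0.49 for Gcnt1, -0.403 for Timp3, 0.28 for Itga5, 0.39 for Ext2 and 0.57 for Oas1a. Histone and cell cycle genes gave -0.82 for Hist1h1a, 0.41 for Cdkn2a, 0.43 for H1f0 and 0.94 for Hist1h2bc.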

How the results depend on the processing

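The settings tried were TPM and median-of-ratios scaling, limma-voom, a pseudocount of 0.1, the filter dropped, raised to a mean of 5 FPKM or applied to the RA libraries alone, fits of the compared groups only, a constant variance, a replicate block, and each library of the groups compared left out. No called result changed direction. Of the uncalled genes Gata6 and Nes crossed 0, and with TPM scaling so did the medians of the O-GlcNAc, heat shock, glycolysis, DNA replication and Polycomb lists. Of 171 called named genes, 162 kept their call under all alternatives. Cyp26a1, Cyp26c1, Hoxa5, Meis2 and Gata3 lost it with a pseudocount of 0.1 (adjusted p of 0.061 to 0.25), mt-Co1 with no filter, and Gfpt1, Zfp42 and Rarb under several. The stricter filter, with fewer genes, gave 1707 higher calls after RA and 58 of at least 2-fold, which numbered 297 with a pseudocount of 0.1 and 372 with limma-voom. Leaving out 1 library of the groups compared gave 3554 to 4274 calls after RA, 1942 to 2430 higher, 1553 to 1879 lower and 117 to 127 of at least 2-fold, 349 to 800 in mESCs and 625 to 1012 for the difference. No filter gave 610 in mESCs and 689 for the difference, and the fit of the compared groups only gave 487 in mESCs. The cause was not tested. Whether replicate numbers pair the samples was not settled. After RA, correlations of deviations from the group mean were -0.002 to 0.12 between same-numbered libraries and -0.18 to 0.071 between libraries of unlike number. With the replicate block 4820 genes were called after RA, beside 4679 without it. Of 1440 list counts, 174 moved by more than 1.5 times.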

Other observations

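The genes below were chosen after their values were seen. Apoe, which encodes a lipid carrier, read 482, 486 and 508 FPKM in the control libraries and 224, 216 and 248 FPKM in the inhibitor libraries (log2 change -1.101 ± 0.078 SE, adjusted p = 6e-06), while in mESCs the log2 fold change was 0.103 (difference -1.203, adjusted p = 0.00029). Igfbp2, a secreted binder of insulin-like growth factors, read 1064, 923 and 1209 FPKM in the control libraries and 468, 555 and 531 FPKM in the inhibitor libraries (log2 change -1.03 ± 0.11 SE, adjusted p = 9.4e-05). For both genes every inhibitor library was below every control library. Elob, an elongin subunit gene, rose from 426 ± 52.96 to 616 ± 52.8 FPKM (0.53, adjusted p = 0.0025).

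By the biotype column of the deposited table, 2486 protein-coding genes rose and 1853 fell of 11983, 18 long intergenic RNA genes rose and 32 fell of 208 (8.65% and 15.38%), and 23 processed pseudogenes rose and 58 fell of 803 (2.86% and 7.22%), beside 18.5% and 14.9% over all genes described. By its column of protein domain families, 25 of 74 homeobox genes rose and 8 fell (33.78% and 10.81%), 11 of 21 collagen genes rose and 1 fell, and 14 of 25 genes with a calcium-binding EGF domain rose and 1 fell. Of 162 KRAB zinc finger genes 21 rose and 5 fell (12.96% and 3.09%).

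Gapdh, often used as a reference gene, read 7.54, 6.58 and 68.1 FPKM in the control libraries and 19.03, 83.4 and 13.3 FPKM in the inhibitor libraries and was not called (log2 change 0.81 ± 1.2 SE, adjusted p = 0.64). Its spread within each group was wider than the difference between the groups. Whether reads of Gapdh were shared with similar genes was not tested, so its level here is uncertain. Gm22574 read 0, 0 and 0 FPKM in the control libraries and 2.53, 4.46 and 2.67 FPKM in the inhibitor libraries. It entered through the inhibitor libraries alone, so these values are a description only.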
